A study of Rattus norvegicus with 12 samples.

Results

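The genes described here are 50 genes of mitosis and chromosome segregation, listed by symbol from their known roles in cell division. The list was chosen with earlier results of these data known. They were followed in primary rat cells of the collecting duct of the kidney's inner medulla (IMCD cells), an epithelium at the end of the nephron where urine is concentrated. A listed gene counted as measured where the array had a probe set (a group of probes for the same transcript) with that symbol alone, and 42 of the 50 were measured, among 14506 genes tested. The 8 without such a probe set were Ncapg, Ncaph, Mki67, Cenpe, Cenpf, Kif18a, Espl1 and Anln. All cultures came from kidneys of male rats of strain SD, 7 weeks old, and spent 4 days in medium of 640 mOsm/kg, a hyperosmolar medium. They then stayed at 640 mOsm/kg, as controls, or were moved to 300 mOsm/kg, and RNA was taken 24 h or 48 h later, with 3 arrays in each of the 4 groups. The labels do not say how many animals gave the cells, or whether the 3 samples of a group were separate cultures. The p-values therefore reflect the spread among these samples alone, which may be technical.

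In a dividing cell, Cdk1 bound to cyclin A or cyclin B starts mitosis, condensins and topoisomerase II compact and untangle the chromosomes, and kinesins build the spindle. Kinetochores tie the chromosomes to microtubules, a checkpoint holds the cell until all are attached, and the anaphase-promoting complex then releases the sister chromatids. Most of these genes are transcribed late in the cell cycle and kept low in resting cells, so their messenger RNAs tend to move together in a culture. Collecting duct cells divide rarely in the adult kidney and can divide in culture. Because whole cultures were measured, more transcript per cell and a larger share of cells in division cannot be told apart, and neither can less transcript per cell and fewer such cells.

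A level below is a log2 array value minus the median of the same array over all genes tested, so a negative level lies under the median gene of that array. Levels of different genes are not compared, since each probe set has its own brightness. The arrays differed in scale before this centring. The deposited medians lay between 6.81 and 6.97 at 48 h and between 6.89 and 7.58 at 24 h, where replicate 1 at 300 and replicate 3 at 640 had the low values of 6.89 and 6.90. All 6 epithelial markers were above the array median in every group, all 5 intercalated cell markers were below it in every group, and 6 or 7 of 10 principal cell markers were above it. Of 8 fibroblast markers, 3 were above it at 24 h and 6 at 48 h, at both osmolalities. Of 8 macrophage markers, 3 or 4 were above it in each group. Such counts also depend on the brightness of each probe set. Of the principal cell markers, Aqp2, the vasopressin-regulated water channel, fell by 3.65 at 24 h and by 4.41 at 48 h on the log2 scale at 300 (limma adjusted p = 5.62e-05 and 2.88e-06).

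The comparison of 300 with 640 mOsm/kg at 24 h asks how these genes stood after the step down in osmolality. Of the 42 genes, 41 had a higher mean at 300, where 40.9% of all genes tested did, and the median log2 change was 0.70 beside -0.04 over all genes. The average level of the 42 genes was 0.0744 ± 0.0911 at 640 and 0.754 ± 0.131 at 300 (SD, n = 3). At an adjusted p under 0.05 from limma over all 14506 genes, 9 of the 42 rose and 0 fell, while 0.276% of all genes rose. The 9 were Ccna2, Top2a, Nusap1, Nuf2, Bub1, Aurkb, Kif4a, Kif20a and Kif20b. An unadjusted p under 0.05 was reached by 35 of the 42 upward and by 1 downward, against 2.43% and 3.01% of all genes. Among all genes ordered by their change, 19 of the 42 were in the highest 100 and 36 in the highest 500. The 3 arrays at 300 all lay above the 3 at 640 for 28 of the 42 genes, against 3.7% of all genes. The number called depended on the arrays and the scale: 0 of the 42 were called on the deposited values without centring, 0 without the 2 arrays of low median and 0 in a fit of the 24 h groups alone. Over all genes, those fits called 13, 17 and 10, against 95 in the reported fit. With 1 array left out at a time, 1 was called without replicate 3 at 300 and 24 h, and 3 without replicate 2 at 300 or replicate 3 at 640 of that time. Between 4 and 5 were called without replicate 1 or 2 at 640 and 24 h, replicate 2 at 640 and 48 h or any array at 300 and 48 h, and between 7 and 9 without any 1 of the others. Ccna2 was among the genes called each time that 1 array was left out.

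**Figure D1:**
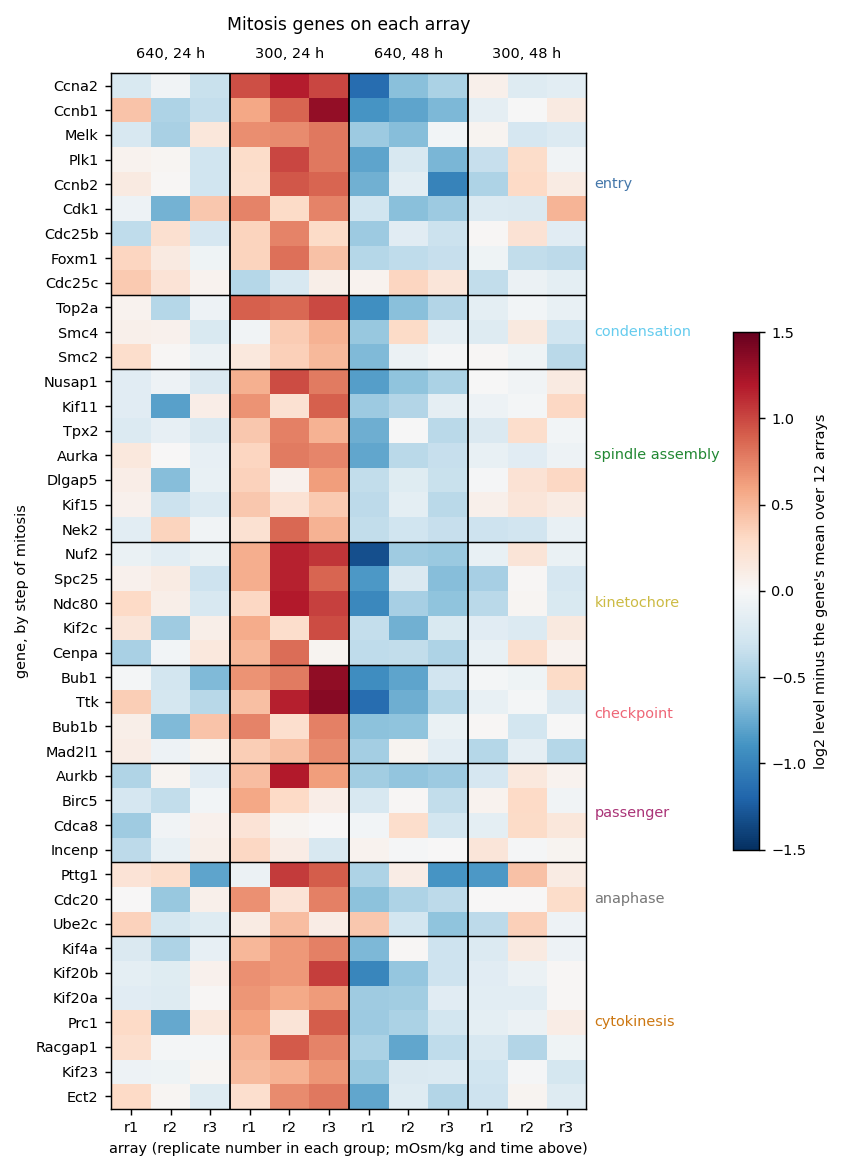
Colour shows the log2 level of each of the 42 genes (rows, by step of mitosis) on each of the 12 arrays (columns, by group and replicate), minus the gene's mean over all arrays. The columns at 300 mOsm/kg and 24 h are the reddest block and those at 640 mOsm/kg and 48 h the bluest.

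After 48 h the same comparison gave smaller changes in the same direction for most genes. The mean at 300 was above that at 640 for 40 of the 42 genes, against 54.6% of all genes, with a median log2 change of 0.38 beside 0.02 over all genes. The average level was -0.261 ± 0.136 at 640 and 0.106 ± 0.0974 at 300 (SD, n = 3). Of the 42 genes 0 were called, although 0.524% of all genes were called higher, and an unadjusted p under 0.05 was reached by 16 upward and 1 downward, against 3.58% and 4.59% of all genes. The arrays at 300 all lay above those at 640 for 20 of the 42 genes at this time, against 7.83% of all genes, and for 16 of the 42 genes at both times, against 1.6%. Only 2 of the 42 were among the 100 highest changes of all genes at 48 h, and 18 among the 500 highest. With the changes of both times averaged, 20 of the 42 rose and 0 fell at an adjusted p under 0.05, against 1.33% of all genes called higher, with a median log2 change of 0.53. That number was 2 on the deposited values without centring, and between 10 and 13 without replicate 1 at 640 or replicate 3 at 300 of 24 h, or without replicate 1 at 640 or replicate 2 or 3 at 300 of 48 h. At 48 h alone, up to 2 genes were called under the other settings tried, and 8 with arrays weighted by their quality. Those weights also raised the calls over all genes, from 269 to 499.

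**Figure D2:**
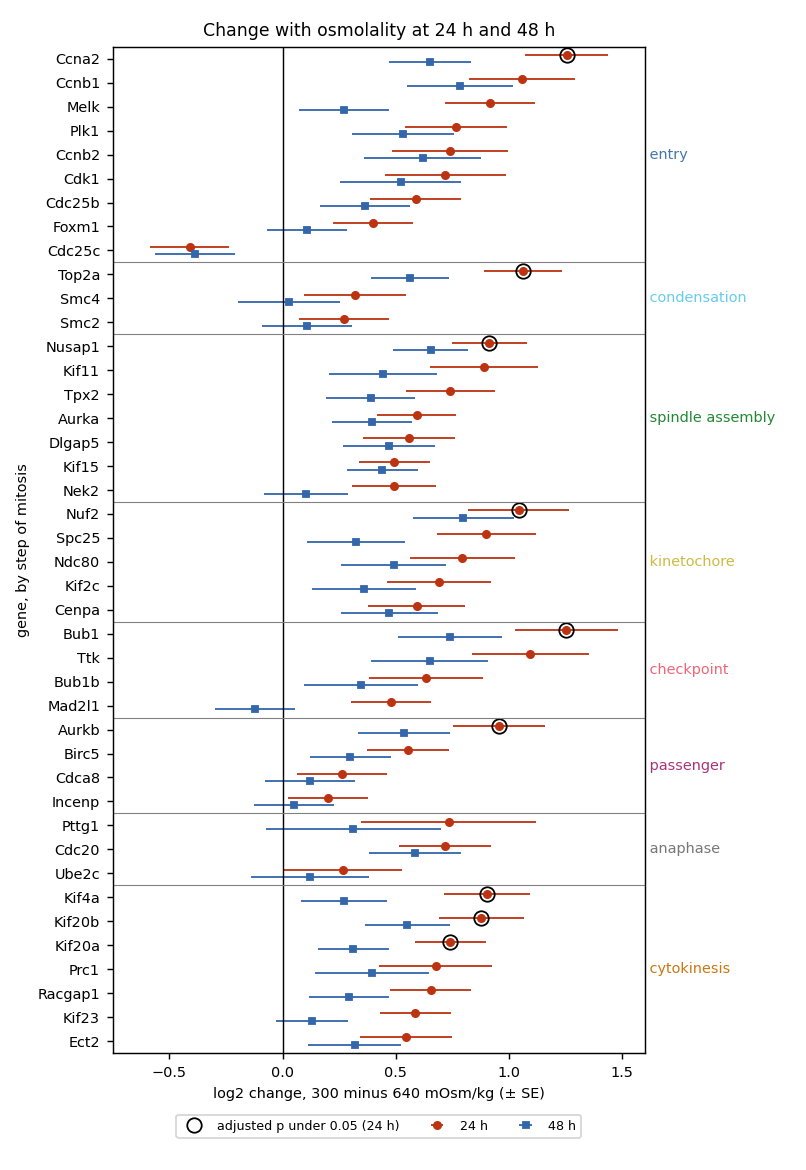
Points give the log2 change from 640 to 300 mOsm/kg of each of the 42 genes (rows, by step of mitosis) with its standard error, at 24 h (red circles) and 48 h (blue squares); open rings mark the 9 genes called at 24 h. All points at 24 h lie right of 0 except that of Cdc25c, and each red point except that of Cdc25c lies right of its blue point.

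Cell type markers also differed with osmolality. Of 10 markers of principal cells, the main cell type of this duct, all 10 had a lower mean at 300 after 24 h and 8 after 48 h, with median log2 changes of -0.71 and -0.99. Aqp2 and Avpr2, the vasopressin receptor, fell at both times, and Aqp3 and the urea transporter gene Slc14a2 fell at 48 h. The mean level of the 10 ranged from 1.33 to 1.63 at 640 and from 0.35 to 0.75 at 300 after 24 h, and from 1.69 to 1.89 and from 0.42 to 0.62 after 48 h. The mean level of 8 macrophage markers ranged from -0.64 to -0.45 at 640 and from -0.80 to -0.66 at 300 after 24 h, with 0 called, and from -0.13 to 0.08 and from -0.40 to -0.17 after 48 h, where Csf1r fell. C1qa, another of these 8, had a change of 0.73 ± 0.18 at 48 h (adjusted p = 0.0639) and rose by 0.53 ± 0.13 in the average of both times (adjusted p = 0.0341). For 5 endothelial markers the ranges were -0.87 to -0.48 and -1.15 to -0.88 at 24 h, and -0.71 to -0.20 and -1.12 to -0.73 at 48 h, where Emcn fell. Of 3 markers of the thick and thin limbs, Aqp1 fell at both times and Slc12a1 at 48 h. Their part in the changes of the mitosis genes was not tested.

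Entry into mitosis was covered by 9 genes, of which 8 had a higher mean at 300 at each time, 1 was called at 24 h and 0 at 48 h. Ccna2, cyclin A2, which drives Cdk2 and Cdk1 from S phase into early mitosis, had levels of -0.29, -0.12 and -0.40 at 640 and 0.91, 1.11 and 0.94 at 300 after 24 h. Its levels after 48 h were -1.20, -0.69 and -0.54 at 640 and 0.01, -0.26 and -0.22 at 300. The osmolality groups did not overlap at either time, and the arrays at 300 after 24 h stood above all 9 others. Ccna2 rose 2.39-fold at 24 h, a log2 change of 1.25 ± 0.18 (SE, adjusted p = 0.00483), and its change at 48 h was 0.65 ± 0.18 (adjusted p = 0.111).

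Ccnb1, cyclin B1, the partner that carries Cdk1 through mitosis, had 24 h levels of 1.51, 0.62 and 0.73 at 640 and 1.67, 1.96 and 2.40 at 300. The 48 h levels were 0.20, 0.29 and 0.41 at 640 and 0.95, 1.08 and 1.22 at 300. Here too the groups did not overlap at either time, but replicate 1 at 640 came close to the lowest array at 300 after 24 h. The log2 change was 1.06 ± 0.23 at 24 h (adjusted p = 0.0589) and 0.78 ± 0.23 at 48 h (adjusted p = 0.147), neither called, while the average of both times, 0.92 ± 0.16, was called (adjusted p = 0.0039). Cdk1 itself, the kinase at the centre of mitotic entry, was at -0.15, -0.78 and 0.33 at 640 and at 0.67, 0.22 and 0.67 at 300 after 24 h. After 48 h it was at -0.37, -0.70 and -0.62 at 640 and at -0.28, -0.29 and 0.44 at 300. The Cdk1 groups overlapped at 24 h, where replicate 3 at 640 exceeded the lowest array at 300, and did not overlap at 48 h. Its changes of 0.72 ± 0.27 and 0.52 ± 0.27 were not called (adjusted p = 0.552 and 0.721).

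Cdc25c, a phosphatase that removes inhibitory phosphates from Cdk1, was the exception among the 42 genes, with a lower mean at 300 at both times. Its levels at 24 h were 0.83, 0.65 and 0.49 at 640 and 0.01, 0.20 and 0.53 at 300, so that 1 array at 300 lay within the range at 640. At 48 h they were 0.49, 0.76 and 0.62 at 640 and 0.07, 0.35 and 0.29 at 300, without overlap. It was the 1 such case of 300 below 640 at 48 h among the 42 genes, against 7.02% of all genes. The log2 changes of -0.41 ± 0.18 and -0.39 ± 0.18 were not called (adjusted p = 0.777 and 0.57), and their 95% intervals ran from -0.78 to -0.04 and from -0.76 to -0.01. The related phosphatase Cdc25b changed in the other direction, by 0.59 ± 0.20 and 0.36 ± 0.20, and was not called either. Of the other members of this step, the mitotic kinase Plk1 had changes of 0.77 ± 0.22 and 0.53 ± 0.22, cyclin B2 (Ccnb2) 0.74 ± 0.26 and 0.62 ± 0.26, and the kinase Melk 0.92 ± 0.20 and 0.27 ± 0.20 at 24 h and 48 h. Plk1 and Melk were called in the average of both times. Foxm1, the transcription factor that switches on many G2 and mitosis genes, had changes of 0.40 ± 0.18 and 0.11 ± 0.18, and its adjusted p at 24 h was 0.826.

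Chromosome condensation and topology had 3 measured genes, and only Top2a among them was called at 24 h. Top2a, topoisomerase II alpha, which untangles replicated DNA, had levels of 1.32, 0.84 and 1.19 at 640 and 2.16, 2.13 and 2.26 at 300 after 24 h. The 48 h levels were 0.35, 0.64 and 0.83 at 640 and 1.12, 1.23 and 1.16 at 300. Neither time showed an overlap, and the arrays at 300 lay close together at each time. Top2a rose 2.09-fold at 24 h, by 1.06 ± 0.17 on the log2 scale (adjusted p = 0.00989), and its change at 48 h was 0.56 ± 0.17 (adjusted p = 0.166). Smc2 and Smc4, the core pair of the condensin complexes, had changes of 0.27 ± 0.20 and 0.32 ± 0.23 at 24 h and 0.11 ± 0.20 and 0.03 ± 0.23 at 48 h. The arrays of both overlapped between osmolalities at both times.

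Spindle assembly was covered by 7 genes, all with a higher mean at 300 at both times, with median log2 changes of 0.59 at 24 h and 0.44 at 48 h. Nusap1, a protein that bundles spindle microtubules near chromosomes, had 24 h levels of -0.50, -0.40 and -0.55 at 640 and 0.20, 0.65 and 0.45 at 300. At 48 h it was at -1.15, -0.93 and -0.80 at 640 and at -0.34, -0.38 and -0.20 at 300. None of the 4 groups of Nusap1 overlapped another. Nusap1 rose 1.88-fold at 24 h, by 0.91 ± 0.16 (adjusted p = 0.0192), and its change of 0.65 ± 0.16 at 48 h had an adjusted p of 0.0617, the lowest of the 42 genes at that time. Kif11, the kinesin that pushes spindle poles apart, had changes of 0.89 ± 0.24 and 0.44 ± 0.24. Kif15, a kinesin that can share that task, had 0.49 ± 0.16 and 0.44 ± 0.16, so that its change was nearly the same at both times. The kinase Aurka had 0.59 ± 0.18 and 0.39 ± 0.18, and its activator Tpx2 had 0.74 ± 0.20 and 0.39 ± 0.20. Dlgap5, which steadies spindle microtubules, had 0.56 ± 0.20 and 0.47 ± 0.20, and the centrosome kinase Nek2 had 0.49 ± 0.19 and 0.10 ± 0.19. Of these 7 genes, Nusap1, Kif11, Kif15, Aurka and Tpx2 were called in the average of both times. The pair of probe sets of Nek2 gave identical changes, 0.49 at 24 h and 0.10 at 48 h, and was not taken as separate measurements. Ccnb2, of the step before, also had a second probe set. It gave 0.75 at 24 h and 0.56 at 48 h, beside 0.74 and 0.62 in the one used.

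Kinetochores, the plates on which chromosomes meet microtubules, and their centromere had 5 measured genes, all higher at 300 in the mean at both times. Nuf2, a subunit of the NDC80 complex that grips microtubules, had 24 h levels of 0.15, 0.10 and 0.16 at 640 and 0.80, 1.41 and 1.33 at 300. At 48 h these were -1.07, -0.28 and -0.30 at 640 and 0.14, 0.45 and 0.16 at 300. The groups did not overlap at either time, and replicate 1 at 640 after 48 h stood well below the other arrays. Nuf2 rose 2.06-fold at 24 h, by 1.04 ± 0.22 (adjusted p = 0.0484), and its 48 h change of 0.80 ± 0.22 (adjusted p = 0.105) was the largest of the 42 genes at that time. Its partners in the same complex, Ndc80 and Spc25, had changes of 0.79 ± 0.23 and 0.90 ± 0.22 at 24 h and of 0.49 ± 0.23 and 0.32 ± 0.22 at 48 h. Both partners were called in the average of both times. Cenpa, the histone that marks the centromere, had 0.59 ± 0.21 and 0.47 ± 0.21, and Kif2c, which takes microtubule ends apart to correct attachments, 0.69 ± 0.23 and 0.36 ± 0.23.

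The spindle checkpoint was represented by Bub1, Bub1b, Mad2l1 and Ttk. Bub1, a checkpoint kinase at kinetochores, had 24 h levels of -0.63, -0.88 and -1.27 at 640 and 0.07, 0.18 and 0.73 at 300. The 48 h levels were -1.53, -1.40 and -0.89 at 640 and -0.63, -0.67 and -0.32 at 300. No array at 640 reached the lowest array at 300 of its time. Bub1 rose 2.38-fold at 24 h, by 1.25 ± 0.23 (adjusted p = 0.0201), and changed by 0.74 ± 0.23 at 48 h (adjusted p = 0.174). Ttk, the kinase that starts checkpoint signalling, had changes of 1.09 ± 0.26 and 0.65 ± 0.26 and was called in the average of both times (adjusted p = 0.0125). Bub1b, the part of the checkpoint complex that blocks the anaphase-promoting complex, had 0.63 ± 0.25 and 0.35 ± 0.25 with overlapping arrays at both times. Mad2l1, the protein that binds and holds Cdc20, was at 1.24, 1.05 and 1.17 at 640 and 1.49, 1.58 and 1.83 at 300 after 24 h, and at 0.61, 1.17 and 0.97 at 640 and 0.70, 0.99 and 0.70 at 300 after 48 h. The Mad2l1 groups were apart at 24 h and overlapped at 48 h. Its changes were 0.48 ± 0.18 and -0.12 ± 0.18, neither called, and with Cdc25c it was one of the 2 genes with a lower mean at 300 after 48 h.

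The chromosomal passenger complex joins the kinase Aurkb to Incenp, Birc5 and Cdca8 and corrects faulty attachments before it moves to the site of division. Its members differed in size of change. Aurkb had 24 h levels of -0.29, 0.21 and 0.00 at 640 and 0.63, 1.36 and 0.79 at 300. After 48 h it was at -0.36, -0.42 and -0.38 at 640 and at -0.08, 0.32 and 0.22 at 300. The osmolality groups did not overlap at either time. Aurkb rose 1.94-fold at 24 h, by 0.96 ± 0.20 (adjusted p = 0.0484), with a change of 0.54 ± 0.20 at 48 h (adjusted p = 0.35). Incenp, the scaffold, had changes of 0.20 ± 0.18 and 0.05 ± 0.18, with 95% intervals from -0.18 to 0.58 and from -0.33 to 0.43. Cdca8, borealin, had 0.26 ± 0.20 and 0.12 ± 0.20, and Birc5, survivin, had 0.55 ± 0.18 and 0.30 ± 0.18. Differences between these 4 genes in their change were not tested.

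Anaphase onset had 3 measured genes. Cdc20, the activator that turns the anaphase-promoting complex on securin and cyclin B, had 24 h levels of 0.37, -0.21 and 0.44 at 640 and 1.05, 0.57 and 1.12 at 300. At 48 h the values were -0.26, -0.10 and -0.03 at 640 and 0.36, 0.36 and 0.64 at 300. There was no overlap at either time. The changes of 0.72 ± 0.20 and 0.58 ± 0.20 were not called (adjusted p = 0.199 and 0.264), and their average of 0.65 ± 0.14 was (adjusted p = 0.0171). Ube2c, the ubiquitin-conjugating enzyme of the same complex, had 0.27 ± 0.26 and 0.12 ± 0.26. Pttg1, securin, which holds separase inactive, had 0.73 ± 0.39 and 0.31 ± 0.39, the widest standard errors of the 42 genes, and its arrays overlapped at both times.

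The central spindle and cytokinesis had 7 measured genes, 3 of them called at 24 h. Kif4a, a kinesin that sets the length of central spindle microtubules, had 24 h levels of -0.93, -1.17 and -0.83 at 640 and -0.21, -0.06 and 0.04 at 300. The 48 h levels were -1.38, -0.69 and -1.02 at 640 and -0.92, -0.58 and -0.79 at 300. Kif4a was thus separated at 24 h and overlapped at 48 h. It rose 1.87-fold at 24 h, by 0.90 ± 0.19 (adjusted p = 0.0466), and its 48 h change was 0.27 ± 0.19 (adjusted p = 0.999). Kif20b, a kinesin of the midbody, was at -1.87, -1.91 and -1.66 at 640 and at -1.04, -1.07 and -0.69 at 300 after 24 h. After 48 h it was at -2.71, -2.31 and -2.04 at 640 and at -1.89, -1.81 and -1.71 at 300. These groups did not overlap at either time. Kif20b rose 1.84-fold at 24 h, by 0.88 ± 0.19 (adjusted p = 0.0484), with 0.55 ± 0.19 at 48 h (adjusted p = 0.242). Kif20a, the kinesin that carries the passenger complex to the central spindle, rose by 0.74 ± 0.16 at 24 h (adjusted p = 0.0476) and had a change of 0.31 ± 0.16 at 48 h. The other members were Kif23 and Racgap1, which together form centralspindlin, the microtubule bundler Prc1, and Ect2, which activates RhoA for the contractile ring. Their changes lay between 0.55 and 0.68 at 24 h and between 0.13 and 0.40 at 48 h, none called.

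**Figure D3:**
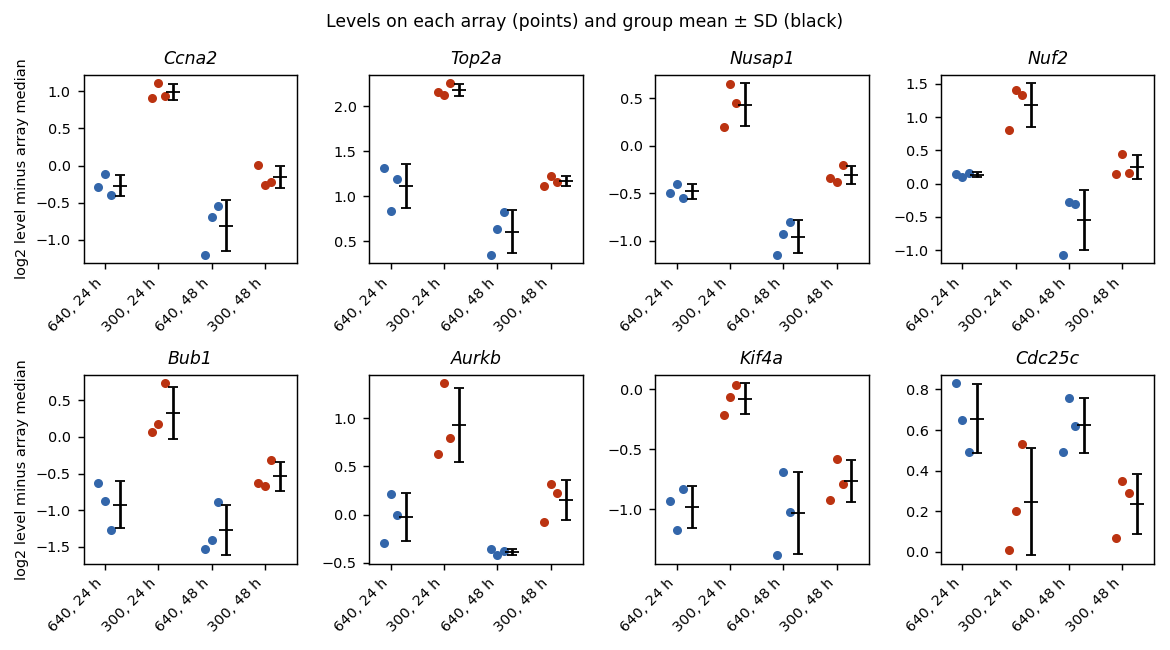
Each panel plots the log2 level of 1 gene minus the array median on each of the 12 arrays (blue at 640, red at 300 mOsm/kg), with the group mean ± SD in black; vertical axes differ between panels and do not start at 0. In the 7 panels other than that of Cdc25c the 3 arrays at 300 and 24 h lie above all 9 others.

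The test of whether the osmolality change differed between the times called 0 of the 42 genes, and 4 of all genes, or 0.0276%. The change was nevertheless larger at 24 h than at 48 h in value for 41 of the 42, Cdc25c being the other, with a median log2 difference (48 h minus 24 h) of -0.29 beside 0.04 over all genes. An unadjusted p under 0.05 was reached by 4 genes, against 0.565% of all genes downward. These were Ccna2, Melk, Mad2l1 and Kif4a, with differences between -0.64 and -0.60. Over the 42 genes the changes at 24 h and 48 h had a Pearson r of 0.848 and a Spearman rho of 0.773. These are across genes that share the same arrays, and genes are not independent replicates.

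**Figure D4:**
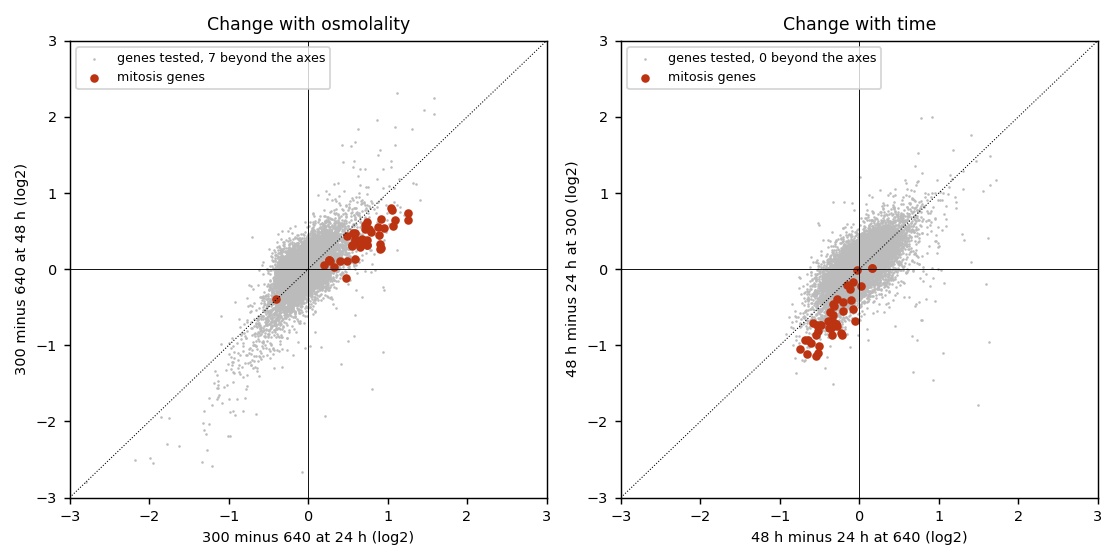
Left, the log2 change from 640 to 300 mOsm/kg at 48 h against that at 24 h; right, the log2 change from 24 h to 48 h at 300 against that at 640 mOsm/kg, for all genes tested (grey; 7 lie beyond the axes on the left and 0 on the right) and the 42 mitosis genes (red); the dotted line marks equal change. All red points but 1 lie below the dotted line in each panel, and most lie at negative values of both axes on the right.

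Levels also differed between 24 h and 48 h at constant osmolality. At 300, 40 of the 42 genes had a lower mean at 48 h, with a median log2 change of -0.72 beside 0.05 over all genes. Ccna2, Top2a and Racgap1 fell by 1.14 ± 0.18, 1.01 ± 0.17 and 0.97 ± 0.18 on the log2 scale (adjusted p = 0.0193, 0.0256 and 0.0336). These 3 were the genes called lower among the 42, against 0.0896% of all genes, and an unadjusted p under 0.05 was reached downward by 31, against 3.01%. Racgap1 was at 1.25, 1.67 and 1.49 at 24 h and at 0.50, 0.31 and 0.68 at 48 h, without overlap. All 3 arrays at 48 h lay below those at 24 h for 28 of the 42 genes at 300, against 4.85% of all genes, and 22 of the 42 were among the 100 lowest changes. In the controls that stayed at 640, 39 of the 42 genes had a lower mean at 48 h, with a median of -0.33 beside 0.00 over all genes. At 640, 0 of the 42 and 0% of all genes were called lower, 15 of the 42 reached an unadjusted p under 0.05 downward, against 2.92%, and all 3 arrays at 48 h lay below those at 24 h for 15 of the 42, against 4.63% of all genes.

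The 3 calls at 300 were lost, with 0 left, on the deposited values without centring and without any 1 of the 3 arrays at 300 and 48 h or replicates 2 or 3 at 300 and 24 h, and became 16 without the 2 arrays of low median. Without those 2 arrays, the calls over all genes also went up, from 37 to 219. The deposited scale itself shifted with time: before centring the median change over all genes from 24 h to 48 h was -0.41 at 640 and -0.38 at 300, and that of the 42 genes was -0.75 and -1.15. Cell type markers moved with time as well. The mean level of 8 fibroblast markers ranged from -0.43 to 0.05 on the 6 arrays at 24 h and from 0.57 to 0.98 on the 6 at 48 h, all 8 were higher at 48 h at both osmolalities, and Dcn, Pdgfrb and Col1a1 rose at both. Macrophage markers had mean levels from -0.80 to -0.45 at 24 h and from -0.40 to 0.08 at 48 h, with 8 of 8 higher at 48 h at 640 and 6 at 300. All 6 epithelial markers were also higher at 48 h at both osmolalities, with median changes of 0.26 at 640 and 0.40 at 300. So were all 5 intercalated cell markers, with medians of 0.20 and 0.25. Of 10 principal cell markers, 8 were higher at 48 h at 640 and 5 at 300. The part of these cell type markers in the changes of the mitosis genes with time was not tested. With osmolality, 0 of the 8 fibroblast markers were called at 24 h or at 48 h, with median changes of -0.06 and 0.07.

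Promoter sequences were looked up because many of these genes changed in the same direction. Genes of late cell cycle phases are known to carry 2 elements near their start: the cell cycle genes homology region (CHR), bound by the MuvB core of the DREAM complex, and CCAAT boxes, bound by NF-Y. The RefSeq promoter table (build GRCr8, from 250 bases before to 50 after the gene start) held 35 of the 42 genes and did not match Ccna2, Foxm1, Tpx2, Aurkb, Incenp, Ube2c and Racgap1. The letters TTTGAA for the CHR and CCAAT were searched on both strands, each on its own, so that matches could overlap. No other spelling of the CHR was searched, so a promoter without TTTGAA is not shown to lack a CHR. TTTGAA was found in 25 of the 35 promoters (71.4%), against 18.3% of all 33469 promoters in the table, and CCAAT in 26 (74.3%), against 37.5%. Both were found in 20 of the 35 (57.1%), against 7.41%, and 2 or more CCAAT in 17 (48.6%), against 11.2%. In 53 promoters of other mitosis genes, outside the 42, each motif was found in 30 (56.6%) and both together in 19 (35.8%). Of 24 promoters of S phase genes, 1 held TTTGAA (4.17%) and 16 held CCAAT (66.7%). Of 25 promoters of the steadily expressed machinery listed below, 5 held TTTGAA (20%) and 15 held CCAAT (60%). In these 2 lists, 37.5% and 32% of the promoters held 2 or more CCAAT, so CCAAT was also frequent outside the mitosis genes. A match is a run of letters and was not tested as a binding site.

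The last 170 bases before the gene start are shown for 6 genes, all but Cdc25c with a higher mean at 300 at both times. They run 5′ to 3′ on the gene's strand, with matches in capitals (TTTGAA or CCAAT, or TTCAAA or ATTGG where the match is on the other strand). Top2a (chr10:84473094-84473263, minus strand) and Cdc20 (chr5:137255800-137255969, minus) hold both motifs. Ccnb1 (chr2:33655226-33655395, minus) and Kif20a (chr18:26504252-26504421, plus) hold CCAAT without TTTGAA. Cdc25c (chr18:26630293-26630462, minus), the gene with a lower mean at 300 at both times, holds both. Bub1 (chr3:135504922-135505091, minus), with one of the largest changes at 24 h, holds neither, as did Melk, Aurka and Kif2c in the whole window.
Top2a: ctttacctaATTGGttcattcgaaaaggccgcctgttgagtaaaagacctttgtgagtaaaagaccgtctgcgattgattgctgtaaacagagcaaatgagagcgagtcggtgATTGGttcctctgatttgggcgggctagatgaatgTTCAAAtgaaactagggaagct
Ccnb1: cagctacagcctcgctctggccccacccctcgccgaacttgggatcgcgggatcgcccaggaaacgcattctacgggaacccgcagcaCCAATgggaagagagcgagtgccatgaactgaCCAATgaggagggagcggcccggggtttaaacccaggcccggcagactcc
Cdc20: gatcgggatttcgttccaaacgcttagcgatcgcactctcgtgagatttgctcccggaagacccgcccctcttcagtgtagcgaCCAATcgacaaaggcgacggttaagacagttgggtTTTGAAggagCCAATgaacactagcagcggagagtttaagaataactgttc
Kif20a: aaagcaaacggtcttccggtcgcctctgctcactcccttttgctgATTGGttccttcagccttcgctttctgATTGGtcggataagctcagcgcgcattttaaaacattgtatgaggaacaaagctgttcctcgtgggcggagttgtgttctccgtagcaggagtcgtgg
Cdc25c: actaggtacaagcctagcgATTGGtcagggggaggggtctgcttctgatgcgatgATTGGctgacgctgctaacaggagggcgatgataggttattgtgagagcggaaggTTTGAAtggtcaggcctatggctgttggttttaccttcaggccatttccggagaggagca
Bub1: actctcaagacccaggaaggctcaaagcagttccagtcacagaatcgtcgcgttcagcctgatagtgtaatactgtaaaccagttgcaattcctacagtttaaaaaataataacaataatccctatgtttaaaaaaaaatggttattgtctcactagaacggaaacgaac

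Other genes of division, listed outside the 42, had smaller median changes. Of 41 other mitosis genes measured, 40 had a higher mean at 300 after 24 h and 36 after 48 h, with median log2 changes of 0.51 and 0.24. Cdkn3, a phosphatase of Cdk1 and Cdk2, rose at both times, by 1.12 ± 0.16 (adjusted p = 0.00483) and 0.85 ± 0.16 (adjusted p = 0.0113). Aspm, a spindle pole protein, rose by 0.89 ± 0.19 at 24 h (adjusted p = 0.0495). From 24 h to 48 h at 300, Mastl, a kinase that keeps mitotic phosphorylation in place, fell by 1.19 ± 0.21 (adjusted p = 0.0256), and Ska1, a kinetochore protein, fell by 1.02 ± 0.19 (adjusted p = 0.0336). Of 24 S phase genes, 23 had a higher mean at 300 after 24 h and 18 after 48 h, with medians of 0.37 and 0.09. Tyms, thymidylate synthase, was the 1 called among them between osmolalities at a single time, with 0.84 ± 0.19 at 48 h (adjusted p = 0.036). In the average of both times, 2 of the 24 S phase genes and 8 of the 41 other mitosis genes were called higher, against 1.33% of all genes. The replication licensing factor Cdc6 fell by 1.19 ± 0.22 from 24 h to 48 h at 300 (adjusted p = 0.0336). The 23 genes listed as steadily expressed machinery, namely subunits and partners of the anaphase-promoting complex, cohesin and gamma-tubulin complexes with Ckap5, Mapre1 and Bub3, were split, 12 higher and 11 lower at 24 h and 14 higher and 9 lower at 48 h, with medians of 0.02 and 0.05 and 0 called. In that list an unadjusted p under 0.05 was reached by 0 genes at 24 h and by 1 at 48 h, Stag1, with a change of -0.50 ± 0.17. Of all genes, 4.59% reached it downward at 48 h.

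**Figure D5:**
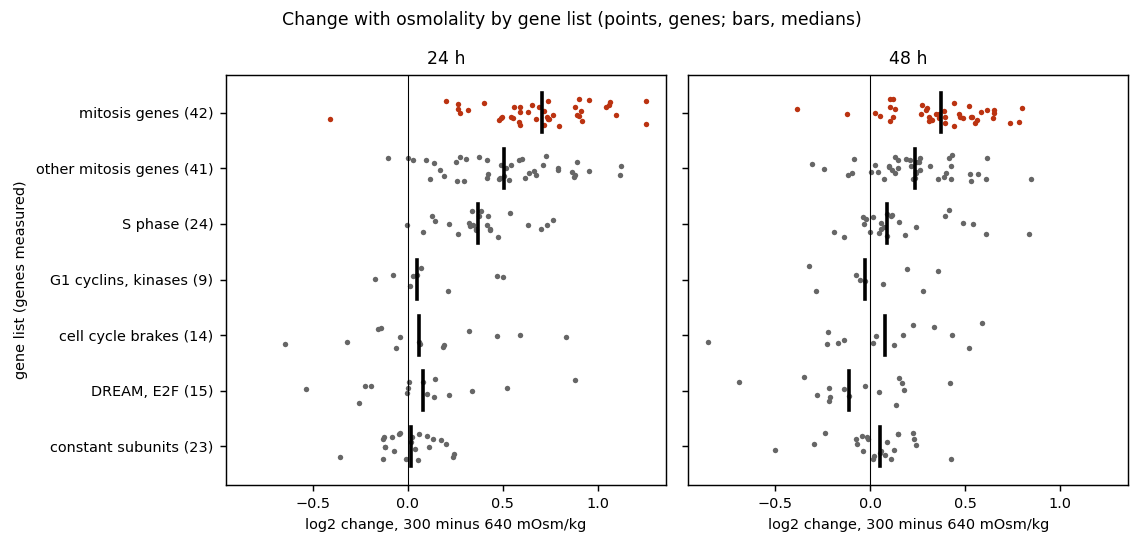
Points are genes and black bars the list medians of the log2 change from 640 to 300 mOsm/kg at 24 h (left) and 48 h (right), for the 42 mitosis genes (red) and 6 other lists (grey), on a shared horizontal axis; the vertical scatter within a list carries no value. The medians of the mitosis genes are 0.70 and 0.38, and those of the constant subunits 0.02 and 0.05.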

How the data were processed

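Total RNA of 12 samples was hybridised to as many Affymetrix Rat Gene 1.0 ST arrays. The authors deposited log2 expression values per probe set, made with RMA and Affymetrix Power Tools per the submitters' processing notes, with versions and hybridisation batches not given in the sources used here. Groups come from the sample titles; short codes in the descriptions give 340 for the 300 group at 24 h and 600 for the 640 group at 48 h, and were not used.

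Of 27596 probe sets, 15310 had 1 symbol, 323 several and 11963 none listed in the platform's gene table; 15279 of the 15310 matched RefSeq and 31 did not. Where a gene had several, the brightest probe set by its mean over 12 arrays stood for it, which gave 14506 genes, and arrays were centred on their median over these genes. Each group had its own mean in limma 3.58.1 (lmFit and eBayes, R 4.3.3; 8 residual degrees of freedom), with Benjamini-Hochberg adjustment over all genes and calls at an adjusted p under 0.05. The script was tested on simulated data. The members, lists and comparisons were chosen with earlier results of these data known, so lists are described by counts and medians without a test. Per-array values are given, in each step, for the gene with the smallest p at each time, for the largest and smallest changes, and for Top2a, Ccnb1 and Cdk1; Mad2l1, Racgap1 and the promoters shown were chosen after their values were seen. Other fits varied the array scale, filter, variance model, probe sets, samples, block and arrays. Promoters were searched with Python 3.11.15. Having 3 arrays per group limits the precision.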

Additional observations from a re-analysis of the deposited data

How the results depend on the processing

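The mean at 300 was above that at 640 for 40 or 41 of the 42 genes at 24 h and for 38 to 41 at 48 h under all settings tried; the number called was not stable. At 24 h (9 called) it was 0 on deposited values, 5 with centring over all probe sets, 4 with equal median and spread, 35 with array weights, 0 with only the groups compared and 0 without the pair of arrays of low median, where the median was 0.78; leaving out 1 array gave 1 to 9 and medians of 0.63 to 0.75. At 48 h (0 called) it was 1 with equal median and spread, quantile normalization, the dimmest 30% of genes left out, only the groups compared, or without the low pair, 8 with array weights, and 0 to 1 with 1 array left out. The average of both times (20) gave 2 on deposited values, 34 with array weights (33 higher and Cdc25c lower) and 10 to 20 with 1 array left out. The median difference between times (-0.29) was -0.40 without the low pair and -0.40 to -0.24 with 1 array left out. At 640 over time, array weights called 16 with a median of -0.49, and deposited values gave -0.75; at 300 (3 called) there were 0 on deposited values with a median of -1.15, 6 with quantile normalization, 5 with cyclic loess, 7 without the dimmest genes, 32 with array weights, 16 without the low pair and 0 to 6 with 1 array left out. On deposited values 2 of 13 called genes of the whole table were higher at 300 after 24 h, against 40 of 95 on centred arrays. Calls over all genes also moved with other settings. At 24 h they were 1595 with array weights, 17 without the low pair and 10 with only the groups compared. At 48 h array weights called 499 against 269 in the reported fit, and in the average of both times 1462 against 497. Over time, array weights called 986 against 20 at 640 and 1907 against 37 at 300. The fit without the low pair called 219 over time at 300. The causes were not tested.

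The replicate number used as a block called 14 at 24 h, 2 at 48 h (1 with a block within each time) and 13 over time at 300. Over all genes this block called 159 at 24 h, 403 at 48 h and 92 over time at 300. Same-numbered arrays at 300 and 640 had correlated deviations from their group means for number 2 (r = 0.844 and 0.795 at 24 h and 48 h), not for number 1 (-0.125 and -0.231) or 3 (-0.206 and -0.222), so the numbers were not taken as pairs. Arrays did resemble each other across osmolalities under other numbers, replicate 1 at 300 with replicate 3 at 640 (correlations of 0.825 at 24 h and 0.78 at 48 h) and replicate 3 at 300 with replicate 1 at 640 (0.576 and 0.631). The reported fit takes the 12 arrays as independent, and what these arrays share was not tested.

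The difference between times was above 0 for 1 of the 42 genes, and for 7 without replicate 2 at 640 and 24 h. Over time at 640, 3 of the 42 had a higher mean at 48 h, and 7 without replicate 1 at 640 and 48 h. Only Ccna2, Top2a, Nusap1, Nuf2, Bub1, Aurkb, Cdc20, Kif4a, Kif20b, Cdc25c, Ccnb1 and Cdk1 were followed singly. Among these genes, 6 values, none called, changed sign with the setting. The difference between times of Cdc25c (0.02) was -0.00989 with centring over all probe sets, -0.00554 with cyclic loess, -0.021 with array weights, -0.00871 without the low pair and -0.093 to 0.167 with 1 array left out; those of Cdc20 and Cdk1 ranged from -0.306 to 0.0691 and from -0.464 to 0.0941. Over time at 640, Cdc25c was 0.0046 with equal median and spread and -0.12 to 0.0506 with 1 array left out, and Kif4a 0.019 without the low pair and -0.224 to 0.119. At 300, Cdc25c was 0.0092 and 0.0024 with equal median and spread and quantile normalization, and -0.13 to 0.13. Of the repeated fits of these singly followed genes, 22 changed sign, 1568 kept direction and side of the threshold, 53 passed it and 109 lost it. These are counts of fits over the settings and comparisons, not of genes.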

Other observations

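A list of DREAM, MuvB and E2F regulators, with Rb1 and the NF-Y subunits Nfya, Nfyb and Nfyc, had 15 measured genes. Some of them hold mitosis genes down in resting cells, and others switch genes on in cycling ones. Of the 15, 0 were called at either time, with median log2 changes of 0.08 at 24 h and -0.11 at 48 h. An unadjusted p under 0.05 was reached by 2 upward and 1 downward at 24 h, against 2.43% and 3.01% of all genes. At 48 h it was reached by 1 downward, against 4.59%. In the average of both times Mybl2 (B-Myb), an activator that joins the MuvB core, rose by 0.65 ± 0.14 (limma adjusted p = 0.017). Rbl2 (p130), the pocket protein of DREAM in resting cells, fell by 0.61 ± 0.15 (adjusted p = 0.0279). Mybl2 had changes of 0.88 ± 0.20 at 24 h and 0.42 ± 0.20 at 48 h, and Rbl2 of -0.54 ± 0.21 and -0.69 ± 0.21.

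Among 14 brakes on the cell cycle, Cdkn1c (p57), an inhibitor of cyclin-dependent kinases, had a change of -0.65 ± 0.17 at 24 h (adjusted p = 0.122) and fell by 0.85 ± 0.17 at 48 h (adjusted p = 0.0113). Fbxo5 (Emi1), an inhibitor of the anaphase-promoting complex that is itself made late in the cycle, rose by 0.68 ± 0.16 in the average of both times (adjusted p = 0.032). The median of this list was 0.06 at 24 h and 0.08 at 48 h. Of 9 G1 cyclins and kinases 0 were called at either time, with medians of 0.05 and -0.03, and 1 reached an unadjusted p under 0.05 at 24 h, Ccne2, with a change of 0.50 ± 0.20. Upward at 24 h, 2.43% of all genes reached it. All these lists share their arrays with the mitosis genes.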
